A study of Homo sapiens with 6 samples.

Results

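Patterning homeobox genes that lie outside the HOX clusters were followed in human cardiomyocytes with and without the kinase gene STK25. They were taken by symbol from a list of 52 genes, of which 51 were found among the 35793 genes measured. ALX4 was not analysed here. The list held 10 LIM homeobox genes (LHX and LMX), 8 PAX genes, 6 DLX genes, 5 genes from SIX2 to SIX6, 5 NKX genes, 2 members each of the EN, OTX, MSX, PITX, BARX, EMX and PRRX families, and ALX1, MNX1 and UNCX.

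The cells were cardiomyocytes differentiated from WTC11, an established human induced pluripotent stem cell line. One group carried the unedited genome (wild type), and the other had both STK25 copies disrupted by CRISPR/Cas9 in the same WTC11 background (STK25 knockout). Neither group received a treatment, and each was sampled as 3 biological replicates on day 15 of differentiation, giving 6 libraries. The knockout was 1 edited line, so the edit cannot be told apart from any other difference between the lines.

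A homeobox encodes the homeodomain, a helix-turn-helix fold that grips short AT-rich DNA motifs, commonly with a TAAT core. Outside the HOX clusters, combinations of such factors mark regions of the embryo: OTX and EN genes the forebrain, midbrain and hindbrain border, LHX and PAX genes nervous system domains and sense organs, and DLX, MSX, BARX, PRRX and ALX genes the mesenchyme of the pharyngeal arches, face and limbs. PAX1 and PAX9 carry a paired domain without a homeodomain. Few of these genes belong to the working cardiomyocyte programme, although the early heart field shares its origin with pharyngeal and head muscle.

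Promoter sequence was read from RefSeq (GRCh38.p14) as the 250 bases before 1 annotated start per gene, for the 37 members found there. Shown are both of the matched genes whose rise in the knockout passed the test under every setting tried (LHX8 and PRRX2) and the 1 gene that fell (NKX2-3). Capitals mark the homeodomain core TAAT, written ATTA on the other strand, and the GC box GGGCGG, written CCGCCC on the other strand. The windows, all on the plus strand, are chr1:75128184-75128433, chr9:129665397-129665646 and chr10:99532692-99532941.
LHX8: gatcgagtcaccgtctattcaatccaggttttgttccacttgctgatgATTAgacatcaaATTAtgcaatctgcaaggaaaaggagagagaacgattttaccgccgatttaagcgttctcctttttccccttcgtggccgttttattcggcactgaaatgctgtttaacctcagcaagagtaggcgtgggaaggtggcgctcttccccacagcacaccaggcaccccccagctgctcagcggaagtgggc
PRRX2: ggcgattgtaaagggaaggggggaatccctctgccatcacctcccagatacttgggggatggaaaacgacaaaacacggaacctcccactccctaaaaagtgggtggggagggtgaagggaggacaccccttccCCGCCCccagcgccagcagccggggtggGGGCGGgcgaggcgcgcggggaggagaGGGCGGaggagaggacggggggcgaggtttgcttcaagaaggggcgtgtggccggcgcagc
NKX2-3: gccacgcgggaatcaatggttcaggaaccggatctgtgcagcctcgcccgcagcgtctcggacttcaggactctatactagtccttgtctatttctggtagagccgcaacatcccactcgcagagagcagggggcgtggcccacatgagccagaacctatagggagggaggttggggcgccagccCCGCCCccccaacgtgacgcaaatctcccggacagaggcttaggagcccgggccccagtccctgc

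The LHX8 window held 2 ATTA matches and no GC box, and was 50.4% G or C. The PRRX2 window held 3 GC boxes and no TAAT core, and the NKX2-3 window 1 GC box and no TAAT core. Their G and C content was 66.8% and 63.2%. Across the 37 member promoters, 22 (59.5%) had a GC box on either strand, against 42.3% of all 27303 promoters of that length. A TAAT core on either strand was present in 16 of the 37 (43.2%), against 48.2% of all. The palindrome TAATTA, which contains the TAAT core, was present in 3 of the 37 (8.11%), against 4.49% of all. The median G and C content was 66.8% for members and 58.0% for all promoters. Members also held a median of 22 CpG dinucleotides per window against 11, with a median observed-to-expected CpG ratio of 0.810 against 0.556. These are counts of letters, not of bound sites.

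All 6 libraries came from bulk RNA, with 22443904 to 53224112 reads assigned to genes, a 2.37-fold range. Values are normalized counts, which are whole reads divided by 1 factor per library, and 1 read was worth 0.638 to 1.51 normalized counts. STK25 itself read 8874, 6774 and 8710 in wild-type replicates 1, 2 and 3 and 3906, 3434 and 3820 in the knockout, which fell by 1.12 ± 0.19 (SE) on the log2 scale (limma adjusted p = 0.00903). That call was lost without wild-type replicate 1 (adjusted p = 0.0611). Genotype divided the libraries along the first principal component (55.6% of the variance). Along the second (24.1%), wild-type replicate 2 and knockout replicate 1 lay away from the other 4 libraries. The 10 cardiomyocyte markers were all tested and summed to between 1291700 and 1608200 in the wild type and between 1844300 and 3357800 in the knockout, so the labelled cell type was present in both. MYL7 was 38.4% and 59.4% of the sum in the wild type and knockout. Without MYL7 the sums were 848700 to 886900 against 983800 to 1033000. PLN was the 1 of the 10 markers that passed (log2 fold change -0.76, adjusted p = 0.0459), and only without knockout replicate 1 did that hold in fits without 1 library (up to 0.173 otherwise). In bulk samples fewer cells of a type and less RNA per cell cannot be told apart.

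Most of the 51 genes had no read or a low mean, as did most of all genes measured. No read was found in any library for 10 of them (19.6%): LHX3, LHX5, LHX9, PAX2, PAX7, SIX6, DLX5, NKX2-1, NKX2-2 and NKX6-1. Among all genes measured that share was 32.5%. Another 20 had reads but a mean under 10 normalized counts over the 6 libraries and were not tested. The remaining 21 (41.2%) were tested with limma, against 43.4% of all genes. Their median level was 39.2 normalized counts, against 616 for all tested genes. More than 3 reads were found for 20, 26 and 26 members in wild-type replicates 1, 2 and 3 and for 23, 22 and 23 in the knockout replicates.

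Of the 21 tested members, 7 (33.3%) passed an adjusted p of 0.05, where 12.8% of all tested genes did. EN1, LHX8, BARX1, PRRX1, PRRX2 and PAX6 were higher in the knockout (6 of 21, against 5.97% of all tested genes), and NKX2-3 was lower (1 of 21, against 6.79%). At an unadjusted p of 0.05 there were 9 members, against 27.5% of all genes. The values of the genotypes did not overlap for 9 members (42.9%, against 33.4%): the 7 called genes, LHX2 and LHX4. With only 3 libraries per genotype, an exact permutation test of a single gene cannot go below p = 0.1, so the calls rest on the fit across all genes. Without wild-type replicate 2 and knockout replicate 1, 9 members passed, while 30.6% of all genes did.

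These shares depend on how members entered the test. Of the 21, 10 had a mean of at least 10 in 1 genotype only, and a gene admitted that way had to differ. Those 10 included every called gene except PRRX2. Among all genes admitted that way 30.6% passed. Of the 11 members with a mean of at least 10 in both genotypes, only PRRX2 passed, against 11.6% of all such genes. By level, 3 of 11 members with a mean of 10 to 50 passed (7.88% of all genes there), 3 of 7 at 50 to 500 (16.9%) and 1 of 3 at 500 to 5000 (11.9%). The median log2 fold change of tested members was 0.10, against 0.01 for all tested genes, with 13 members above 0 and 8 below.

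**Figure D1:**
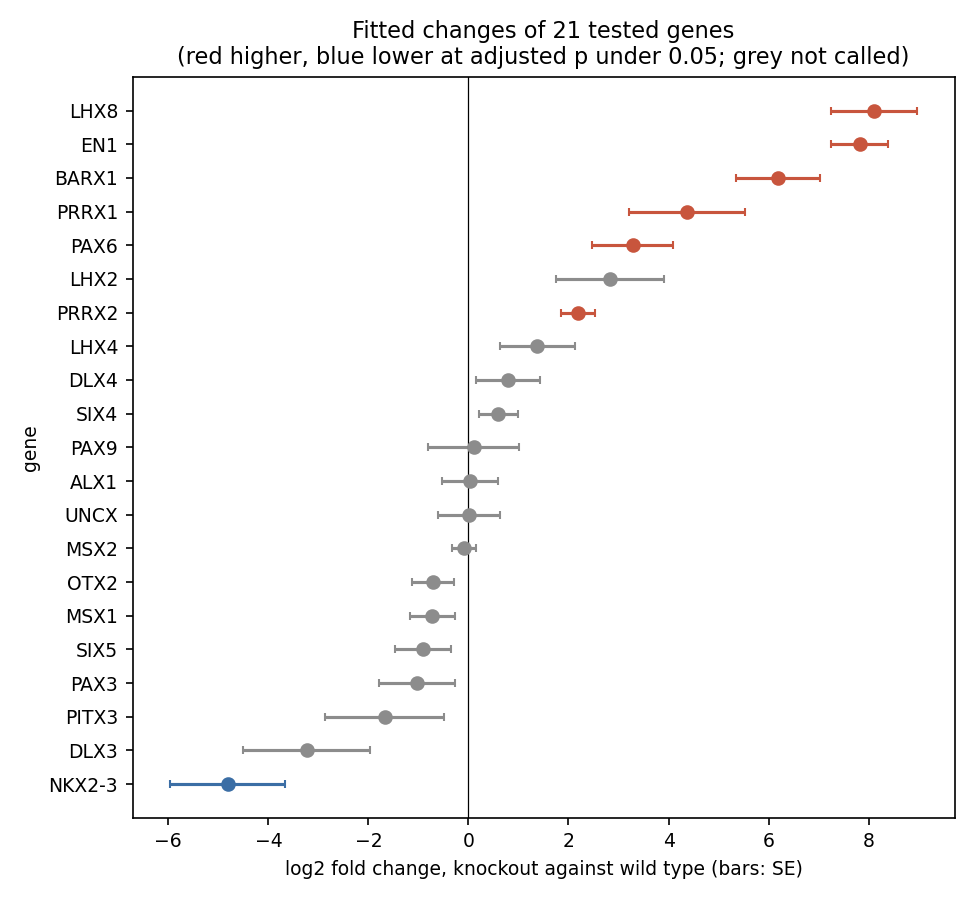
Log2 fold change of the 21 tested genes, knockout against wild type, on the log2(normalized count + 1) scale. Points are fitted values and bars their SE (n = 3 libraries per genotype). Red and blue mark genes past an adjusted p of 0.05. The 6 called rises run from 2.19 (PRRX2) to 8.11 (LHX8), and the 1 called fall is NKX2-3 at -4.81.

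Among regional markers of the nervous system, EN1 and LHX8 went from no or almost no reads to a clear signal in every knockout library. EN1 (ENSG00000163064.6, chromosome 2, 118842171 to 118847678, minus strand) encodes an engrailed repressor of the midbrain and hindbrain border and of ventral limb ectoderm. It had no read in any wild-type library and 305, 209 and 179 normalized counts in knockout replicates 1, 2 and 3. Every knockout library was above every wild-type library, by at least 79.4-fold between the means when the wild type was set at 3 reads per library. The knockout mean was 231 ± 65.9 (SD, n = 3). The fitted log2 fold change was 7.82 ± 0.57 (SE) (adjusted p = 0.000287). Its paralog EN2, which acts later in midbrain and cerebellum, had 14 reads in wild-type replicate 2, 1 in knockout replicate 3 and none elsewhere.

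LHX8 (chromosome 1, 75128434 to 75161533, plus strand), a LIM homeobox factor of basal forebrain cholinergic neurons, jaw mesenchyme and oocytes, rose from a few reads. Wild-type replicates 1, 2 and 3 read 12.1, 3.81 and 0 normalized counts, and knockout replicates 1, 2 and 3 read 794, 1142 and 1451. Means were 5.30 ± 6.18 and 1129 ± 329 (SD, n = 3 each), a 213-fold ratio. Its log2 fold change was 8.11 ± 0.87 (SE) (adjusted p = 0.00137). With a pseudocount of 1 and all libraries it had the largest fitted rise of the members. EN1 was ahead of it with a pseudocount of 0.1, in edgeR and DESeq2, and without wild-type replicate 3 or knockout replicate 3. As a share not corrected for length, LHX8 made up 16.8% to 35.6% of the summed normalized counts of all 51 genes in the knockout libraries and at most 0.518% in the wild type.

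PAX6 (chromosome 11, 31784779 to 31818062, minus strand), the paired-type factor of eye, forebrain and pancreatic islet, read 6.04, 5.33 and 1.28 normalized counts in wild-type replicates 1, 2 and 3 and 47.0, 93.6 and 19.6 in the knockout. The genotypes did not overlap, but the knockout libraries differed among themselves by several fold. The means were 4.22 ± 2.57 and 53.4 ± 37.4 (SD, n = 3 each), a 12.7-fold ratio, with a log2 fold change of 3.28 ± 0.81 (SE) (adjusted p = 0.0364). The call did not hold when any single library was left out: adjusted p ran from 0.0512 to 0.127 over those 6 fits. ELP4, which overlaps PAX6 on the opposite strand, read 684, 957 and 648 in the wild type and 511, 497 and 488 in the knockout. Whether counting used the strand is not given in the sources used here.

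Genes of arch, face and limb mesenchyme made up the other rises. BARX1 (chromosome 9, 93951622 to 93955372, minus strand), a factor of stomach and first-arch mesenchyme, read 4.53, 0 and 0 normalized counts in the wild type, which is 3 reads in all. Knockout replicates 1, 2 and 3 read 197, 92.5 and 115, 367 reads in all. Every knockout library was above every wild-type library. The pooled ratio was 154 with a 95% exact interval of 52.4 to 752 that covers counting error only. The log2 fold change was 6.19 ± 0.84 (SE) (adjusted p = 0.00345).

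PRRX2 (chromosome 9, 129665641 to 129722674, plus strand), a paired-related factor of craniofacial and limb mesenchyme, was already present in the wild type. It read 93.6, 120 and 67.6 normalized counts there and 466, 318 and 502 in the knockout. All knockout values were above all wild-type values, and the means of 93.9 ± 26.4 and 429 ± 97.9 (SD, n = 3 each) gave a 4.57-fold ratio. The log2 fold change was 2.19 ± 0.34 (SE) (adjusted p = 0.00611).

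PRRX1 (chromosome 1, 170662728 to 170739419, plus strand), its paralog, read 22.7, 0 and 0.638 normalized counts in the wild type and 67.4, 52.4 and 92.4 in the knockout. Wild-type replicate 1 stood above the other wild-type libraries, yet below every knockout library. The log2 fold change was 4.37 ± 1.17 (SE) (adjusted p = 0.0479), for a 9.11-fold ratio of means. It passed without wild-type replicate 1 (adjusted p = 0.00971) and in none of the other 5 fits without 1 library, where the adjusted p reached 0.157. edgeR on the recovered reads gave 0.164.

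**Figure D2:**
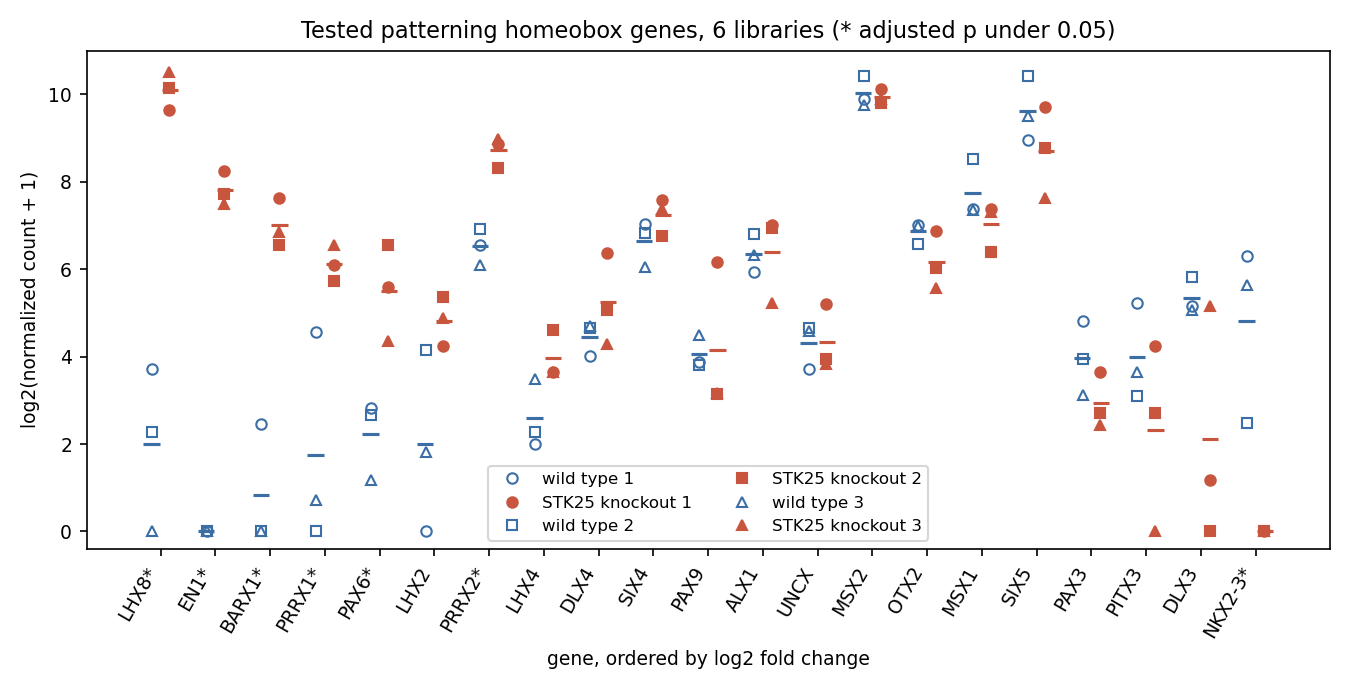
Normalized counts of the tested genes in each library, on the log2(normalized count + 1) scale, with open blue symbols for wild-type libraries, filled red symbols for STK25 knockout libraries and short lines for the group means on that scale. An asterisk marks an adjusted p under 0.05. EN1 sits at 0 in all 3 wild-type libraries, and the knockout points of LHX8 run from 794 to 1451 normalized counts.

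NKX2-3 (chromosome 10, 99532933 to 99536524, plus strand), an NK2 factor of spleen, gut mesenchyme and pharyngeal floor, was the one called fall. Wild-type replicates 1, 2 and 3 read 78.5, 4.57 and 49.1 normalized counts, and no knockout library had a read. The wild-type libraries varied widely, with replicate 2 near the level of a few reads. The knockout mean was at least 13.5-fold lower when set at 3 reads per library, and the log2 fold change was -4.81 ± 1.15 (SE) (adjusted p = 0.0328). The call was lost without wild-type replicate 1 (0.161), wild-type replicate 3 (0.150), knockout replicate 2 (0.0722) or knockout replicate 3 (0.0903).

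EN1, LHX8, BARX1 and PRRX2 passed under every alternative and with every single library left out. Their highest adjusted p was 0.00433, 0.0119, 0.0243 and 0.0368.

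**Figure D3:**
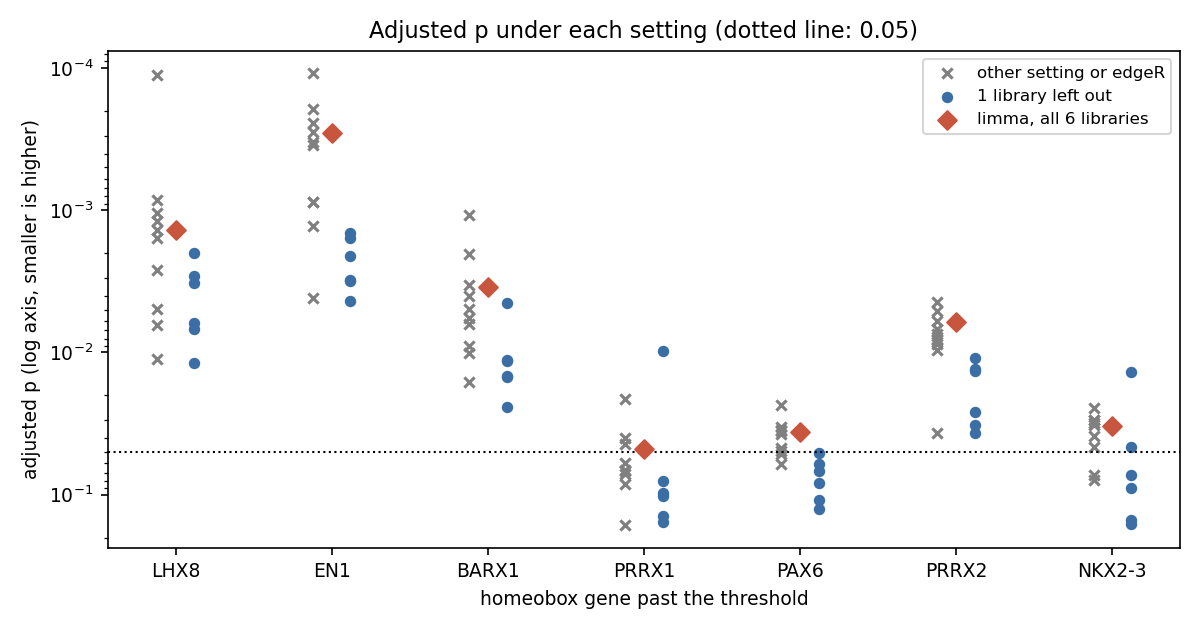
Adjusted p of the 7 called genes on a log axis with smaller values higher. Red diamonds are the limma fit on all 6 libraries, blue points leave out 1 library each, and grey crosses are other settings and edgeR (DESeq2 is not drawn). EN1, LHX8, BARX1 and PRRX2 stay above the dotted 0.05 line, while PAX6, PRRX1 and NKX2-3 have points on both sides.

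The 14 tested members that did not pass included MSX2, SIX5 and MSX1, which had the 3 highest means per kilobase in the wild type. MSX2, a BMP-responsive repressor of cranial mesenchyme and endocardial cushion, read 955, 1378 and 871 normalized counts in the wild type and 1115, 900 and 958 in the knockout. The genotypes overlapped fully, with a log2 fold change of -0.08 ± 0.24 (SE) (adjusted p = 0.867). MSX1, its paralog, read 165, 366 and 164 in the wild type and 167, 83.6 and 157 in the knockout (log2 fold change -0.72, adjusted p = 0.347). SIX5, whose gene lies beside DMPK at the myotonic dystrophy locus, read 494, 1361 and 725 in the wild type and 840, 437 and 198 in the knockout. The genotypes overlapped (log2 fold change -0.91, adjusted p = 0.349). SIX4, a factor of muscle precursors, had a log2 fold change of 0.60 (adjusted p = 0.385).

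OTX2, the forebrain and midbrain determinant, read 128, 94.4 and 127 normalized counts in the wild type and 116, 64.6 and 46.2 in the knockout (log2 fold change -0.71, adjusted p = 0.337). Without wild-type replicate 2 and knockout replicate 1 it passed, at -1.21 (adjusted p = 0.0492). DLX3, a distal-less factor of placenta, skin and tooth, read 34.7, 55.6 and 32.5 in the wild type and 1.27, 0 and 34.7 in the knockout. Knockout replicate 3 was at the wild-type level and the other 2 knockout libraries were at 0 or 1 read. The log2 fold change was -3.24 (adjusted p = 0.144), and -4.76 (adjusted p = 0.0246) without that library.

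LHX2, a factor of forebrain, eye and limb, read 0, 16.8 and 2.55 normalized counts in the wild type and 17.8, 40.1 and 28.4 in the knockout, which did not overlap. Its log2 fold change of 2.83 did not pass (adjusted p = 0.136), but did without wild-type replicate 2 (3.91, adjusted p = 0.0458). LHX4, a factor of pituitary and motor neurons, also did not overlap, at 3.02, 3.81 and 10.2 against 11.4, 23.4 and 11.6 (log2 fold change 1.38, adjusted p = 0.286). The span of ACBD6, at 2137 to 3461 normalized counts, overlaps that of LHX4 on the opposite strand. Whether reads of ACBD6 were counted for LHX4 was not tested. PAX9, a factor of pharyngeal pouch and tooth, owed its knockout mean to replicate 1, at 71.2 against 7.80 and 8.0 in the other 2 (adjusted p = 0.962). PITX3, PAX3, DLX4, ALX1 and UNCX had log2 fold changes of -1.67, -1.03, 0.78, 0.03 and 0.01, with adjusted p from 0.419 to 0.995. For ALX1, UNCX, PAX9 and MSX2 the sign changed with the scaling or the libraries used.

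Several members under the mean of 10 had reads almost only in the wild type. LHX1, a factor of the head organizer and nephric duct, had 6, 40 and 27 reads in wild-type replicates 1, 2 and 3 and 1, 0 and 0 in the knockout. The pooled level was 57.9-fold lower in the knockout, with a 95% exact counting interval of 10.1 to 2317. BARX2, a factor of muscle and epithelial precursors, had 12, 24 and 25 reads against 2, 0 and 0, a pooled 24.2-fold lower level with an interval of 6.41 to 204. With no filter on low values both passed, at an adjusted p of 0.0191 for LHX1 and 0.0237 for BARX2. The motor neuron and pancreas factor MNX1 had 1, 6 and 6 reads against none in the knockout (adjusted p = 0.0598 with no filter). BARX1 and BARX2 thus had their reads in opposite genotypes.

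In the others the reads followed no genotype or lay in 1 or 2 libraries. SIX2 had 25 and 20 reads in wild-type replicates 2 and 3, 3 in knockout replicate 2 and none elsewhere. OTX1 had 24 reads in knockout replicate 3 and 3 in replicate 1, with none in the wild type. PAX5 read 0, 14 and 6 against 13, 4 and 2, SIX3 4, 14 and 8 against 10, 2 and 9, and DLX1 0, 6 and 13 against 1, 0 and 2. No direction can be read from these at this depth. EN2 and MNX1 lie on distal chromosome 7q and UNCX on distal 7p. Near UNCX, 4 of 15 tested genes within 500 kb rose, where 5.97% of all tested genes did. UNCX itself read 12.1, 24.4 and 23.0 against 35.6, 14.5 and 13.3 normalized counts. These 4 were COX19, ELFN1, GET4 and ZFAND2A, named after their values were seen. ELFN1 held without any 1 library, and the other 3 were lost without wild-type replicate 1 or 3 or knockout replicate 3 (adjusted p up to 0.0833). Some other members that were not called also had called neighbours. Of all tested genes 12.8% were called, 5.97% higher and 6.79% lower. DLX3 had 4 lower of 20 tested, and DLX4 the same 4 of 19. PITX3 had 3 higher and 1 lower of 21, and SIX5 2 higher and 2 lower of 26. PAX3 had 1 lower of 2 and OTX2 1 lower of 4. None was called at LHX2 (5 tested), LHX4 (6), PAX9 (2), SIX4 (7), MSX1 (3) or ALX1 (4). MSX2 had no tested neighbour.

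**Figure D4:**
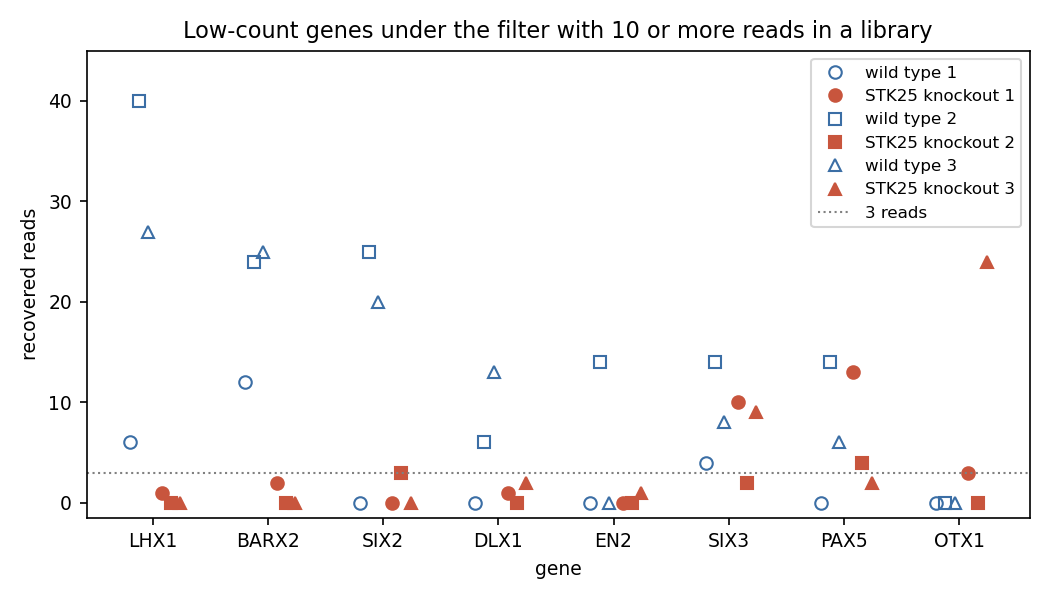
Recovered reads, by library, of the 8 members under the mean of 10 that reached at least 10 reads in a library. Open blue symbols are wild-type and filled red symbols knockout libraries, and the dotted line is at 3 reads. LHX1 and BARX2 have 6 to 40 reads in every wild-type library and at most 2 in any knockout library.

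Levels of members were ranked per kilobase of merged exons. Per kilobase, MSX2 was highest in the wild type at 470 ± 120 normalized counts (SD, n = 3), followed by SIX5 at 242 ± 126, MSX1 at 109 ± 55.0 and PRRX2 at 71.6 ± 20.1. By these SDs each gene overlapped the next in that order, so the wild-type ranks are not resolved either. In the knockout the order was MSX2 at 436 ± 49.0, PRRX2 at 327 ± 74.6, LHX8 at 284 ± 82.6, SIX5 at 138 ± 91.3, EN1 at 80.1 ± 22.8 and BARX1 at 75.8 ± 31.0. By single libraries only MSX2 stood clear of the next gene, its lowest at 396 against 383 for the highest of PRRX2. By SD those 2 overlapped as well. Each of the other genes overlapped its neighbour, and BARX1 also overlapped ALX1 and MSX1 below it. The ranks in that order are therefore not resolved. LHX8 moved from rank 20 to rank 3 of the 51 members and BARX1 from 25 to 6, while PRRX2 moved from 4 to 2. Summed over all members the levels were 2334, 3837 and 2367 normalized counts in the wild type and 4739, 3784 and 4081 in the knockout, which overlapped. Without SIX5 and MSX2, neither of them called, the sums were 885, 1098 and 771 against 2784, 2448 and 2925, which did not. Those sums include the called rises of LHX8, PRRX2, EN1 and BARX1, so their separation is not a result apart from those calls.

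Genes beside the called members passed at about the rate of all genes, 4 of 38 tested (10.5%, against 12.8%). Within 500 kb, none of the tested neighbours passed at EN1 (2 tested), LHX8 (3), BARX1 (6), PAX6 (5) or PRRX2 (12). PRRX1 had 2 tested neighbours and both rose: GORAB by 1.13 on the log2 scale (adjusted p = 0.0268) and METTL11B by 2.10 (adjusted p = 0.0105). Of 8 at NKX2-3, CNNM1 rose by 5.78 (adjusted p = 0.0097) and HPSE2 had a log2 fold change of -4.13 (adjusted p = 0.0295). CNNM1 held without any 1 library. METTL11B was lost without knockout replicate 3 (0.0521), HPSE2 without any 1 wild-type library (up to 0.127), and GORAB in all but the fit without knockout replicate 1 (up to 0.116). These 4 neighbours were named after their values were seen.

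**Figure D5:**
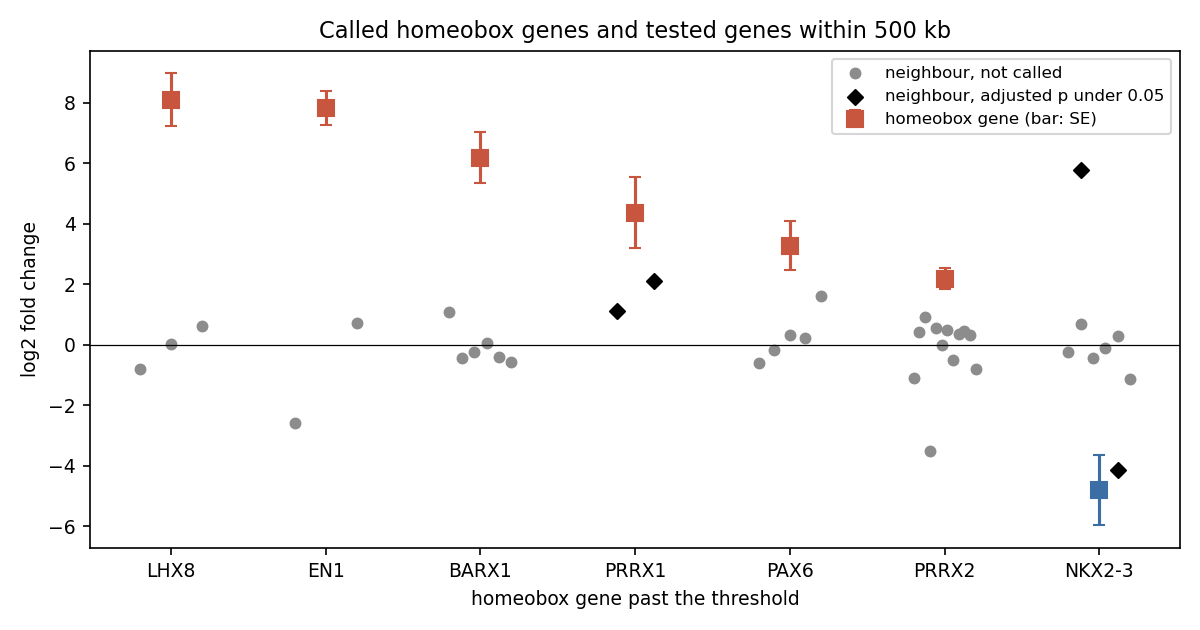
Log2 fold change of the 7 called homeobox genes (squares, red higher and blue lower, bars SE) and of the tested genes within 500 kb on either side of each (grey not called, black diamonds past an adjusted p of 0.05). Sideways spread within a column only separates points. GORAB and METTL11B beside PRRX1, and CNNM1 and HPSE2 beside NKX2-3, passed.

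Homeodomain proteins act with partners, which were compared by group. Of all tested genes 12.8% were called, 5.97% higher and 6.79% lower. Among genes with a mean under 10 in 1 genotype 30.6% were called. Of the called genes in the lists below, that holds for DACH2, ALDH1A2, TBX1, EBF1, FOXF1, SOX2, SOX3, S100B, AFP and MEGF10. Of the 9 TALE cofactors (PBX, MEIS and PKNOX), all tested, 1 passed: PBX3 read 3196, 2769 and 3069 in the wild type and 1616, 1567 and 1721 in the knockout, a log2 fold change of -0.88 (adjusted p = 0.0158). The list's median was -0.23. Of 8 tested LIM cofactors (LDB, LMO and SSBP), which bridge or block LIM homeodomain complexes, LMO2 (1.49, adjusted p = 0.0213) and LMO3 (0.94, adjusted p = 0.0465) rose and SSBP4 (-1.22, adjusted p = 0.0321) fell, with a median of -0.26. Of 5 tested EYA and DACH partners of PAX and sine oculis-type factors, DACH2 rose (4.72, adjusted p = 0.0161), with means of 1.91 ± 3.32 in the wild type and 50.3 ± 13.6 in the knockout (SD, n = 3 each), with a median of 0.35. Of the 5 genes of the Groucho (TLE) family, TLE4 (1.24, adjusted p = 0.0143) and TLE3 (1.14, adjusted p = 0.0422) rose and TLE2 (-1.09, adjusted p = 0.0323) fell, with a median of 1.14.

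None of these cofactor calls held in all 6 fits without 1 library. PBX3 and LMO2 were each lost without wild-type replicate 1 or 3 or knockout replicate 2 or 3 (adjusted p up to 0.0930 and 0.0887). DACH2 was lost without wild-type replicate 1 or knockout replicate 3 (up to 0.0767), and TLE4 without wild-type replicate 1 or 3 or knockout replicate 3 (up to 0.0632). SSBP4 and TLE2 held only without knockout replicate 1 (up to 0.109 and 0.138 otherwise), and LMO3 and TLE3 held in none of the 6 (up to 0.153 and 0.154).

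A list of signals that set up such domains in embryos was read next. It held secreted ligands and antagonists, the retinoic acid enzymes, the hedgehog receptor PTCH1 and the factors GLI1, GLI2 and GLI3. Of 13 tested, 5 rose and none fell, against 5.97% and 6.79% of all tested genes, with a median log2 fold change of 0.32. BMP4, a ligand upstream of MSX genes in many tissues, read 230, 167 and 215 in the wild type and 1014, 924 and 1050 in the knockout (2.29, SE 0.23, adjusted p = 0.00113). ALDH1A2, which makes retinoic acid, read 0, 7.62 and 11.5 against 90.2, 224 and 254 (5.19, adjusted p = 0.0141), and FGF8, an organizer signal of the midbrain and hindbrain border, 16.6, 39.6 and 28.7 against 187, 89.2 and 100.4 (2.11, adjusted p = 0.0307). BMP7 (1.10, adjusted p = 0.0125) and BMP2 (0.99, adjusted p = 0.0496) also rose. BMP4 held in all 6 fits without 1 library. BMP2 was lost in all but the fit without knockout replicate 1 (up to 0.166) and in 7 of 12 other settings, edgeR among them. ALDH1A2 was lost without knockout replicate 3 (0.0660), BMP7 without wild-type replicate 1 or knockout replicate 3 (up to 0.0689), and FGF8 in all but the fit without wild-type replicate 2 (up to 0.110). IHH, WNT1, WNT3A, WNT8B and GREM1 had at most 3 reads in every library.

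Because patterning genes are shared by many embryonic cell types, marker lists of such types were read beside them. The shares of all tested genes to set beside each list are 5.97% higher and 6.79% lower. Pharyngeal and head mesoderm markers summed to 3633 to 6838 in the wild type and 11835 to 12330 in the knockout, and of 8 tested 4 rose and 1 fell, with a median log2 fold change of 2.07. TCF21 (5.28, adjusted p = 0.00952), TBX1 (5.18, adjusted p = 0.000472), EBF1 (4.14, adjusted p = 0.0201) and ISL1 (3.82, adjusted p = 0.000225) rose and FOXF1 (-4.09, adjusted p = 0.0260) fell. The sum separated through ISL1: without it the sums were 3187 to 6057 and 3386 to 5139, which overlapped. TCF21, TBX1 and ISL1 held without any 1 library. EBF1 was lost without wild-type replicate 1 or knockout replicate 3 (up to 0.0881), and FOXF1 without either of these or wild-type replicate 2 (up to 0.0799). Epicardial markers summed to 46254 to 52880 against 148100 to 156470, with 3 of 8 higher (TCF21, ALDH1A2 and KRT18) and none lower (median 1.42). KRT18, a keratin of many epithelia, was 99.4% and 99.2% of that sum in the wild type and knockout. The other 7 markers summed to 279 to 352 against 1150 to 1306, which include the called rises of TCF21 and ALDH1A2. KRT18 held without any 1 library. Intermediate mesoderm markers summed to 594 to 855 against 1470 to 1620, with OSR1 (1.27, adjusted p = 0.0195) and CDH6 (2.73, adjusted p = 0.0418) higher of 5 tested (median 1.27). OSR1 was lost without wild-type replicate 1 or knockout replicate 2 or 3 (up to 0.0928), and CDH6 without wild-type replicate 2 or 3 or knockout replicate 2 or 3 (up to 0.135).

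For the nervous system, neural progenitor markers summed to 4858 to 8308 in the wild type and 7288 to 17033 in the knockout, which overlapped (median log2 fold change 0.64). NES was 93.3% and 92.2% of the 2 genotypes' sums. Without NES the sums were 341 to 561 against 807 to 835, which did not overlap. Those sums include the called rises of SOX2 and ZIC1, so their separation is not a result apart from those calls. Of 7 tested, SOX2 (5.81, adjusted p = 0.00256) and ZIC1 (4.41, adjusted p = 0.0034) rose and SOX3 (-6.44, adjusted p = 0.00113) fell, while the neuroectoderm gene SOX1 had at most 3 reads everywhere. Neuronal markers summed to 1140 to 1815 against 1611 to 1998, with 3 of 9 higher and 1 lower (median 1.35), led by TUBB3 (2.99, adjusted p = 0.00997). Without SNAP91, the 1 that fell, the sums were 708 to 805 against 1579 to 1770, which did not overlap. Those sums leave out the called fall and include the called rises of TUBB3, INA and NEFL. Their separation is therefore not a result apart from those calls. INA, NEFL and SNAP91, the 3 called besides TUBB3, were each lost in at least 4 of the 6 fits without 1 library (adjusted p up to 0.110, 0.136 and 0.134). Neural crest and glial markers summed to 791 to 1623 against 221 to 306. NGFR (-3.01, adjusted p = 0.00709), S100B (-3.32, adjusted p = 0.0261) and ERBB3 (-2.40, adjusted p = 0.0104) fell and ETS1 (2.66, adjusted p = 0.00599) rose, which makes up all 4 tested. S100B was lost without wild-type replicate 1 or 3 or knockout replicate 2 or 3 (up to 0.108), and ERBB3 without wild-type replicate 1 or 3 (up to 0.0614). SOX10 and TFAP2B had at most 3 reads everywhere.

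Foregut endoderm markers summed to 21630 to 29963 in the wild type and 7984 to 8572 in the knockout. KRT19 was 52.6% and 59.6% of that sum in the wild type and knockout. Without KRT19 the sums were 9682 to 14820 against 3018 to 3569. That remainder includes the called fall of CLDN6, with means of 10030 and 2079. AFP (-5.22, adjusted p = 0.00661), CLDN6 (-2.25, adjusted p = 0.00102) and KRT19 (-1.38, adjusted p = 0.00341) were lower and none of the 6 tested was called higher. TTR (-2.40), EPCAM (-0.20) and CDH1 (0.22) did not pass. FOXA1 and FOXA2 were at or under 3 reads. Paraxial mesoderm markers summed to 75.5 to 151 against 41.2 to 103, with MEGF10 lower of 3 tested (-4.91, adjusted p = 0.0195, lost without any 1 wild-type library or knockout replicate 2, up to 0.0877) and MEOX2, MYF5 and MYOD1 at or under 3 reads. Fibroblast markers overlapped in sum (12950 to 26595 against 7979 to 16863), with 3 of 9 higher and 1 lower: THY1 (2.96, adjusted p = 0.00275), DCN (2.82, adjusted p = 0.0276) and COL3A1 (2.61, adjusted p = 0.0172) rose and COL1A2 had a log2 fold change of -5.01 (adjusted p = 0.000616), and TWIST2 was at or under 3 reads. DCN was lost without wild-type replicate 1 or 3 or knockout replicate 2 or 3 (up to 0.112), and COL3A1 without wild-type replicate 1 or knockout replicate 2 or 3 (up to 0.0719). Pluripotency markers summed to 1043 to 1134 against 3135 to 4515, with TDGF1 (2.63, adjusted p = 0.000656) the 1 of 6 that passed. Without TDGF1 the sums were 420 to 571 against 522 to 550, which overlapped. Endothelial markers summed to 174 to 478 against 418 to 584, with none of 4 called, and CDH5, ERG and TIE1 were at or under 3 reads. The part of these cell types in the homeobox changes was not tested.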

How the data were processed

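RNA of 6 libraries was analysed from 1 deposited table of normalized counts (a signal), 35793 gene symbols by 6 columns, with 0 columns unused. Per the labels' protocols, cDNA was made with a Clontech Ultra Low kit and libraries with NexteraXT. The submitters' processing notes name bcl2fastq 2.19, kallisto 0.44.0, DESeq2 1.28.1 and GRCh38, without roles. The annotation and any use of strand are not given in the sources used here.

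All values (100%, within 0.01 read) were whole reads divided by 1 factor per library, so reads were recovered. Since kallisto estimates need not be whole, these may be rounded estimates, and the exact intervals rest on them. Floors of 3 reads and intervals cover counting error only. Replicates differed by more than sampling noise (a chi-square of at least 18.9 for each degree of freedom), so each counted once. The labels name no batch, so none could be checked.

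Genes with a mean of at least 10 were fitted with limma 3.58.1 (R 4.3.3) on log2(value + 1) with all 6 libraries, no covariate and eBayes with a trend. Benjamini-Hochberg adjustment ran over the 15536 genes fitted, with a threshold of 0.05. Log2 fold changes are on that scale, where the pseudocount and low libraries shape the values of low genes. Folds printed as ratios are of means of normalized counts. Scripts were tested on simulated data. edgeR 4.0.16 and DESeq2 1.42.0 on the recovered reads were alternatives, beside other pseudocounts (0.1, 10), filters, scalings, a replicate block and leaving out each library.

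Positions came from GENCODE 29 (GRCh38) by symbol. Every tested homeobox gene, members with at least 10 reads in a library, and up to 4 called genes per list are named. MNX1, BMP2, ISL1 and the genes near members were named after their values were seen. The members and lists were chosen with earlier results of these data known. Of 18 antisense and divergent partner genes listed, 1 was in the table and none was tested. Figures used Python 3.11.15 and matplotlib 3.10.9. Some marker genes are not reported here.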

Additional observations from a re-analysis of the deposited data

How the results depend on the processing

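With a mean of at least 50, 10 members were tested and 4 passed. PAX6, PRRX1 and NKX2-3 were under that filter, so their calls were not tested there. The 7 called members became 4 with the replicate number as a block, and 4 to 7 when 1 library was left out. Rises ran from 4 to 5 in those fits, and falls from 0 to 3. The 7 without knockout replicate 1 held 5 of the original calls, with LHX1 and BARX2 in place of PAX6 and PRRX1. With no filter the 7 called were that same set. No fit without 1 library kept all 7. Falls were 0 with a pseudocount of 10 or the replicate block, and 3 with no filter. With a mean of at least 50 the fall of NKX2-3 could not be called, because it was not tested. Without wild-type replicate 2 and knockout replicate 1, an alternative chosen after seeing the data, 9 were called and 2 of them were lower. Deviations of same-numbered libraries from their group means had correlations of -0.235, -0.400 and 0.169. The largest across genotypes was 0.45, for wild-type replicate 2 with knockout replicate 1. With so few libraries these values cannot tell whether the replicate numbers mark a shared preparation. EN1, LHX8, BARX1 and PRRX2 were the 4 called with the block. Over all genes the calls were 798 with the block, 3210 with DESeq2, 4706 without that pair of libraries and 792 to 2192 without 1 library, against 1982.

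Scaling to equal totals moved the median of all genes to -0.27 and that of the members to -0.17, and split the calls into 549 higher and 1457 lower, against 927 and 1055. The members' median ran from -0.27 to 0.56 without 1 library. Signs that turned belonged to genes not called. With equal totals ALX1 was at -0.24, UNCX at -0.26 and PAX9 at -0.17. Without that pair ALX1 was at -0.04, UNCX at -0.25, PAX9 at -1.03 and MSX2 at 0.03. Without 1 library ALX1 ran from -0.27 to 0.62, UNCX from -0.42 to 0.25, PAX9 from -0.90 to 0.61 and MSX2 from -0.22 to 0.11. The causes were not tested. Of the 40 genes named from the partner and marker lists by rule, 16 were called in every fit without 1 library.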
